A study of Mus musculus with 2 samples.

Results

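The regions described here are peaks of E2F1 enrichment that sat upstream of the transcription start site (TSS) of exactly 1 promoter. They were taken from the authors' peak table by position only: a peak was kept when 1 of its entries was of the promoter class and the distance on that entry was above 0. This gave 866 of the 5667 listed peaks, or 15.3% (exact 95% interval 14.4% to 16.2%), and they named 864 genes. The other single-promoter peaks numbered 1147 with the TSS inside the peak window and 267 downstream of it, so upstream peaks were 37.98% of all 2280 (35.98% to 40.01%). A further 345 peaks had 2 or more promoter entries and were not members.

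Chromatin came from primary hepatocytes of C57Bl6J mice infected with Ad-E2F1, an adenovirus that carries E2F1, and harvested 36 h later. The 2 groups were chromatin pulled down with an antibody to E2F1 and input chromatin with no antibody, both from infected cells, with 1 record of each. Both samples therefore carried the E2F1 vector, and no cells without the vector entered the comparison. The labels do not say from how many animals the cultures came, and the series text speaks of 2 replicates that are not separated in the table. The values below thus carry no replicate error, read totals are unknown, and each fold, tag count and false discovery rate is the authors' value for a single peak. Intervals cover counting over peaks only, with any PCR copies left in the reads. No test between position classes was run, since peaks are not replicates.

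E2F1 binds DNA as a dimer with a DP protein and is known for recognising short GC-rich sites close to the start of genes for DNA replication and cell cycle entry. Its activity is held back by retinoblastoma family proteins until cyclin-dependent kinases release it. In liver it has also been linked to genes of glucose and lipid metabolism. The stretch just upstream of a TSS is where general promoter elements such as CCAAT boxes, bound by NF-Y, and GC boxes, bound by SP family proteins, are commonly found.

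The letters before the start are shown for the 6 strongest members with a window edge within 100 bases of the TSS and 1 RefSeq start. They show how an E2F-type match sits in such a promoter, and that the 250 bases searched held none in 2 of the 6. Each line is the 250 bases before the start of the RefSeq transcript, 5′ to 3′ on the gene's strand, in build GRCm38.p6. Capitals mark E2F-type matches, that is TTGGCGC or TTCGCGC or TTCCCGC or TTGCCGC on either strand. The stretches are chr7:19003808-19004057 (plus strand) for Irf2bp1, chr2:125625114-125625363 (minus strand) for Cep152, chrX:53269806-53270055 (minus strand) for Fam122b, chr8:57511593-57511842 (plus strand) for Hmgb2, chr19:31082591-31082840 (plus strand) for Cstf2t and chr4:32615220-32615469 (plus strand) for Casp8ap2. These positions are not those of the peaks, which are on mm9.
Irf2bp1: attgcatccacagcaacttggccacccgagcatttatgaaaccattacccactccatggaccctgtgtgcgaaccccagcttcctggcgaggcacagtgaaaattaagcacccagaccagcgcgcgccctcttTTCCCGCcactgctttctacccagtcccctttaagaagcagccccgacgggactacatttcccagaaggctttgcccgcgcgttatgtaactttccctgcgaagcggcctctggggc
Cep152: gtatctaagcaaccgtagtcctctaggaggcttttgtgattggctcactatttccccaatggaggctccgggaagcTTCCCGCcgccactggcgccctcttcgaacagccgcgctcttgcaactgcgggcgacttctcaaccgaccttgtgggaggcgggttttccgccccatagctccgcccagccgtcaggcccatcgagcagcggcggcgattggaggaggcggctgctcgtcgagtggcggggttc
Fam122b: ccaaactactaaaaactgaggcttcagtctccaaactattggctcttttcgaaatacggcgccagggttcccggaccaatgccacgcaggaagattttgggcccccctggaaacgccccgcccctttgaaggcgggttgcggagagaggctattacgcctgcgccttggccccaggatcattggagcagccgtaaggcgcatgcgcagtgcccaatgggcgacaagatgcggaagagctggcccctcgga
Hmgb2: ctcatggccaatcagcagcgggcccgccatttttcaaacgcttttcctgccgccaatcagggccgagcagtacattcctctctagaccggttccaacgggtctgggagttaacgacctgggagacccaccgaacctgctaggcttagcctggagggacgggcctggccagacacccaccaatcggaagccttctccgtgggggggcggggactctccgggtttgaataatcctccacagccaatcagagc
Cstf2t: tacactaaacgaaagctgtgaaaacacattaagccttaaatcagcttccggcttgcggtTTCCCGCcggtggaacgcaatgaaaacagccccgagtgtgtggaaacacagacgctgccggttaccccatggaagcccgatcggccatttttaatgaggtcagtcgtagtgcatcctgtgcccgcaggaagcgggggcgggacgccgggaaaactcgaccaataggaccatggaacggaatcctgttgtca
Casp8ap2: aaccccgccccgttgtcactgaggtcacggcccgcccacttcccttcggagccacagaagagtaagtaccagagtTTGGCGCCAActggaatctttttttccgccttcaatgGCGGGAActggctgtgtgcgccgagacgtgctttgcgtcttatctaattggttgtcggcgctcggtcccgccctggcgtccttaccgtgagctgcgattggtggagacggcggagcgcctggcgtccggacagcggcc

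Of these 6 promoters, 4 held an E2F-type match. The match was centred 114 bases before the start in Irf2bp1, 171 in Cep152 and 188 in Cstf2t. Casp8ap2 held 3, at 172, 169 and 135, of which the first pair overlap, 1 on each strand. Fam122b and Hmgb2 held none of the 4 words in this stretch but 4 CCAAT boxes each, on either strand. Their windows reach farther upstream than the letters shown. Cep152, a scaffold of centriole duplication, had a fold of 27.14 with its window 18 bases upstream. Casp8ap2, a factor of histone messenger RNA processing, had 24.42 at 23 bases, and Cstf2t, a copy of a polyadenylation factor, 24.56 at 53 bases. Irf2bp1, a corepressor, had the highest of these folds, 28.73, at 13 bases.

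The strongest upstream peak was that of H2afx, a histone H2A variant that marks broken DNA, at chr9:44142372-44142672 (mm9). It had a fold of 70.6 with 885 tags, a pileup height of 646 and a window 125 bases before the TSS, and it ranked 1 among all listed peaks. The next member, Cdkn2d, codes for an INK4 inhibitor of the cyclin D kinases. Its fold was 35.39 with 400 tags in a region of 1601 bp, 207 bases upstream, at chr9:21095861-21096161. The third, at the predicted gene Gm4694 on the same chromosome, had 35.26 with 399 tags in a region of 1601 bp, 209 bases upstream. These values are almost the same as those of Cdkn2d, and whether the 2 places share reads of 1 near-identical sequence was not tested. Both are uncertain for that reason.

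Behind them stood Hdgfrp2 with a fold of 30.0 at 505 bases, Mamstr, a cofactor of MEF2 proteins, with 28.44 at 907, and 2610528E23Rik with 28.38 at 108. Grinl1a had 27.98 with 669 tags at 13 bases. E2f3, an activator of the same family as E2F1, had 27.33 with 496 tags and lay 257 bases upstream at chr13:30077795-30078095. Mxd3, a MAX partner of the MYC network, had 26.53 at 166 bases, Hmgb2, a DNA-bending chromatin protein, 25.02 at 81, and Nup85, a nuclear pore subunit, 24.62 at 81. Fam122b had 26.83 at 49 bases and Tcf3, an E protein of the helix-loop-helix class, 24.12 at 284. The 20 strongest ended with Rfwd3, a ubiquitin ligase of the replication stress response, at 23.28, the immediate early gene Ier2 at 22.56 and Nfatc2ip at 22.46. Mamstr and Ier2 were the members of this group whose window lay more than 850 bases from the TSS. By tags the order differed: H2afx was followed by Atad2, a bromodomain ATPase, with 759 and Rdm1, a relative of RAD52, with 737.

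At the other end, the weakest members were Tmem38b with a fold of 2.52, Cyp20a1 with 2.55, Gm10639 with 2.6, Uba3, part of the NEDD8 activating enzyme, with 2.61 and Ctage5 with 2.68. Their tag counts, 236 to 356, were above the median of all members. Over all 866 members the median fold was 6.195 (quartiles 4.65 and 9.07, exact 95% interval of the median 5.89 to 6.5), with 163 tags in a region of 1796 bp. Peaks on the TSS had a median fold of 6.86 (6.67 to 7.12) and downstream peaks 5.38 (5.1 to 5.62), so the upstream median lay between them and the intervals did not overlap. Peaks outside promoters had 4.07 and peaks with 2 or more promoter entries 6.93. The order rests on the fold. As tags per kilobase of region, upstream peaks had a median of 82.7 (80.9 to 84.6) and peaks on the TSS 81.2 (79.4 to 83.0), which overlap, and downstream peaks 74.1.

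A fold of at least 10 was reached by 183 members, or 21.1% (18.5% to 24.0%), against 12.8% of all listed peaks. The same share was 24.2% on the TSS and 12.4% downstream. A false discovery rate of at most 1% was reached by 511 members (59.0%), against 39.8% of all listed peaks.

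Most members lay close to the TSS. The distance from the window to the TSS had a median of 156.5 bases (quartiles 52 and 409, range 1 to 1980). Since the window reaches 150 bases to either side of the summit, the median summit lay 306.5 bases upstream. Within 150 bases lay 425 members (49.1%), and 770 (88.9%) lay within 850. Downstream promoter entries ended at 499 bases, and over that same distance there were 683 upstream members against 267 downstream peaks, a ratio of 2.56.

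Median folds were lower at greater distance. The median was 6.965 in the 212 members at 1 to 50 bases (6.03 to 7.84) and 6.36 in the 213 at over 50 to 150. It was 6.215 in the 186 at over 150 to 350, 5.82 in the 159 at over 350 to 850 and 5.49 in the 96 farther out (4.78 to 6.08). Neighbouring ranges overlapped in their intervals, and even the nearest and farthest ranges overlapped slightly. The share with a fold of at least 10 went from 25.9% in the nearest range (20.2% to 32.4%) to 14.5% at over 350 to 850 bases (9.40% to 20.9%) and 16.7% beyond. Across the 866 members the Spearman correlation of distance with fold was -0.16, a description of peaks from 1 list. Tags showed almost none (-0.016).

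**Figure D1:**
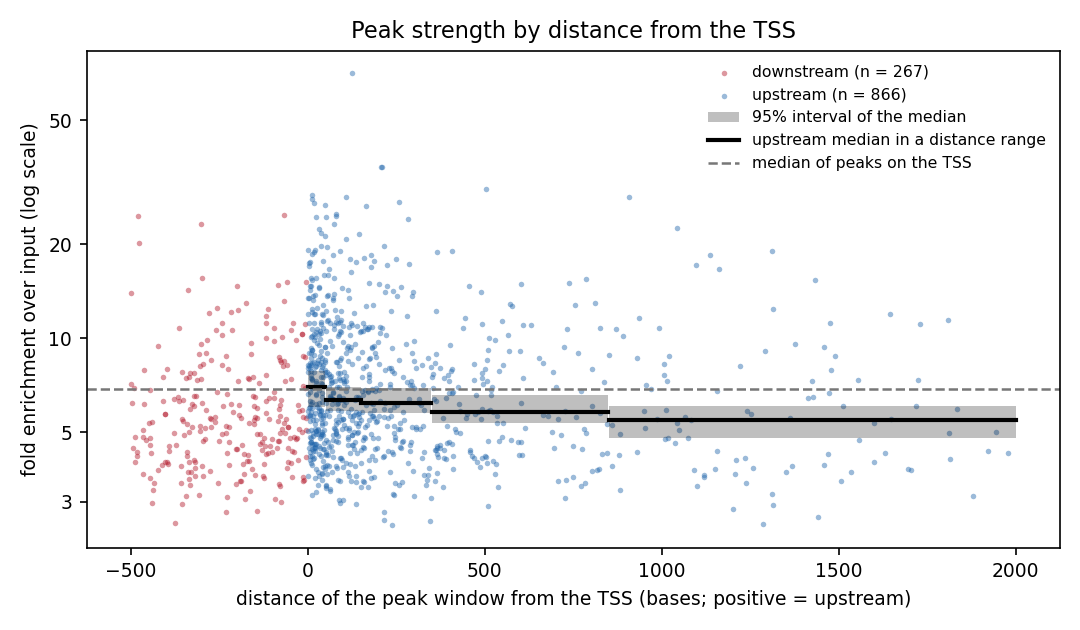
Fold enrichment over input (log scale) of each single-promoter peak off the TSS against the distance of its window from the TSS in bases, positive upstream; black lines are upstream medians per distance range with 95% intervals in grey, and the dashed line is the median of peaks on the TSS. The medians step from 6.965 nearest the TSS to 5.49 beyond 850 bases, while single strong peaks such as Mamstr (28.44) lie far out.

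At the edges of the rule, the nearest members had their window 1 base from the TSS. They were Dhx36, a helicase of G-quadruplex structures, with a fold of 19.16, Rnf26 with 13.43, the mitochondrial ribosomal protein gene Mrpl42 with 11.96, Whamm with 5.64 and 1810012P15Rik with 3.62. Just outside, on the gene side, lay Stk11ip at 3 bases downstream with a fold of 5.07 and, at 4 bases, Nup205 with 5.56, Rhot2 with 15.16 and Galc with 4.17. The farthest members were Olfr124 at 1980 bases (fold 4.28), 4930412O13Rik at 1944 (5.01), Ccdc11 at 1923 (4.36), Tmed7 at 1879 (3.12) and Fcgr4 at 1835 (5.93). Beyond the promoter class, the next peaks lay 2001 bases from Nfatc4 (5.99), 2027 from Ptprk (3.33) and 2029 from Tec (3.22).

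Beyond 850 bases a few peaks were as strong as those near the TSS. Behind Mamstr and Ier2 came Kif16b, a kinesin of endosome transport, with a fold of 19.08 at 1312 bases, Zmiz1, a transcription coregulator, with 18.54 at 1137 and Cyp26a1, the enzyme that breaks down retinoic acid, with 17.13 at 1098. Slc2a7, a hexose transporter, had 16.62 at 1161 and Polr2l, a shared RNA polymerase subunit, 15.43 at 1434. The Polr2l window also had an entry inside Tspan4, and that of Mamstr inside Rasip1.

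The called region is wider than the window around its summit, and in most members it extended over the TSS. The strand of the gene was available for 680 members, and in 592 of them (87.1%, 84.3% to 89.5%) the region contained the TSS. The count was 184 of 184 at 1 to 50 bases, 167 of 167 at over 50 to 150, 144 of 149 at over 150 to 350, 77 of 114 at over 350 to 850 and 20 of 66 farther out. The median region ran 406.5 bases past the TSS into the gene. From the summit, the median arm towards the gene was 706.5 bases and the arm away from it 835, and the arm towards the gene was the longer in 40.4% of members. By distance this share was 34.2% at 1 to 50 bases, 36.5% at over 50 to 150 and 38.9% at over 150 to 350. It was 49.1% at over 350 to 850 and 56.1% beyond, where the median arms were 907 towards the gene and 724 away. Peaks on the TSS had 39.9%, so the asymmetry over all members was also present there.

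**Figure D2:**
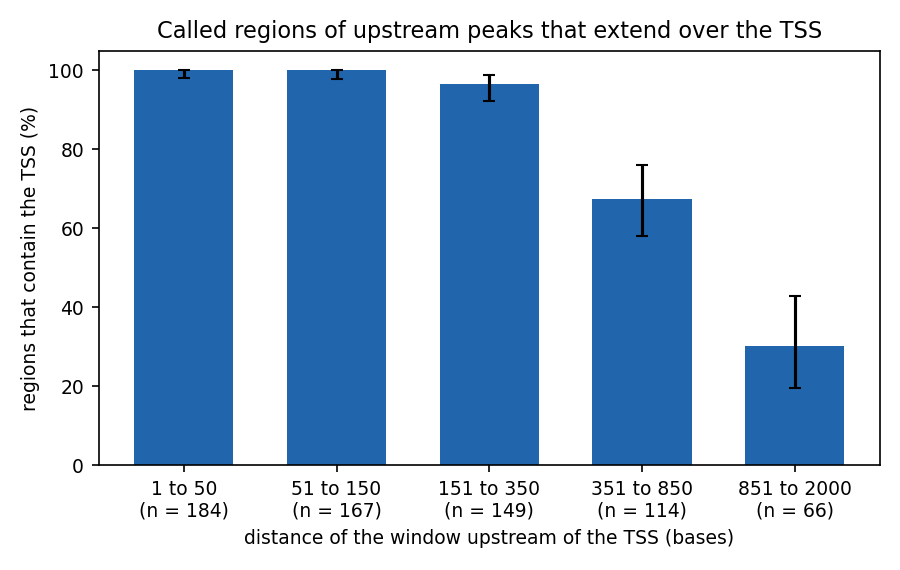
Share of upstream members whose called region contains the TSS, in percent with exact 95% intervals, by distance of the window from the TSS in bases; n counts members with a known strand. All regions with a window within 150 bases reach the TSS, and 30.3% do beyond 850 bases.

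Some upstream windows lay inside another gene. A second entry was present at 67 members (7.74%), in each case of the authors' class for windows inside a gene. Some of these entries had very large distances, such as -1808399 for Fgfr2 at the window of 2310057M21Rik. The gene bounds were not checked. A second entry of any class was present at 3.75% of peaks on the TSS and 62.5% of downstream peaks. Whether those entries lay inside a second gene was not counted. Among members the share was 3.77% at 1 to 50 bases (1.64% to 7.30%), 10.7% at over 350 to 850 and 25% beyond (16.7% to 34.9%). Examples were Grinl1a, whose window lay inside Gcom1, and Cstf2t, which lies inside Prkg1. The named gene was the closest one at 847 members, and 15 of the 19 exceptions were beyond 850 bases.

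A RefSeq start on the opposite strand within 1000 bases upstream, a head-to-head neighbour in GRCm38.p6, was found for 60 of the 559 members with 1 RefSeq start (10.7%, 8.29% to 13.6%). Among all 22862 genes with 1 start the share was 11.2%, and on the TSS it was 8.41%. Peaks that also had a promoter entry at the neighbour were left out by the rule. This selection can lower the share in members and on the TSS, so the share of all genes is not a like measure. The selection also depends on distance. The promoter class ends 500 bases downstream of a TSS, so windows farther inside the neighbour were not left out. Such windows can be more frequent far from the named TSS. The shares by distance below thus mix this selection with position, and how much of their rise it gives was not tested. Among members by distance the share was 5.84% at 1 to 50 bases (2.71% to 10.8%), 8.45% at over 50 to 150, 11.4% at over 150 to 350, 15.5% at over 350 to 850 and 21.4% beyond (11.6% to 34.4%). The neighbour was a protein-coding gene in 23 of the 60 and a long noncoding RNA in 37. Hdgfrp2 with neighbour Ubxn6, and Neurl2 with neighbour Ctsa, a lysosomal carboxypeptidase, were of the first kind. The median fold was 6.41 with such a neighbour (5.08 to 7.63) and 6.28 without (5.93 to 6.75). For these members the table does not tell which of the 2 starts the peak belongs to.

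E2F-type matches were counted in the members' promoters. Of 866 members, 848 were matched to a RefSeq gene, 680 to a RefSeq promoter and 559 to a gene with exactly 1 start, over which the shares are given. In the 250 bases before that start, 127 of 559 (22.7%, 19.3% to 26.4%) held 1 or more of the 4 words on either strand. The share was 7.88% of all 22862 promoters with 1 start, 9.91% of the 14730 protein-coding ones and 7.78% of protein-coding ones with no promoter entry in the list. It was 27.5% for peaks on the TSS (24.4% to 30.8%) and 11.0% for downstream peaks (6.78% to 16.7%). The letters searched end at the start, so windows on the TSS lie partly outside them and downstream windows wholly. The share for downstream peaks thus does not describe the DNA under them. The word TTCCCGC was the most common, in 13.4% of members against 3.78% of all promoters, followed by TTGGCGC with 5.55% against 2.03%.

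The share declined with the distance of the peak. It was 30.5% at 1 to 50 bases (23.4% to 38.4%), 28.2% at over 50 to 150, 19.5% at over 150 to 350, 14.3% at over 350 to 850 and 7.14% beyond (4 of 56, 1.98% to 17.3%). The last value lay at the level of all promoters. Beyond 250 bases the window no longer overlaps the letters searched, so these shares do not describe the DNA under the farther peaks, and no match says only that the words are not in this stretch.

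**Figure D3:**
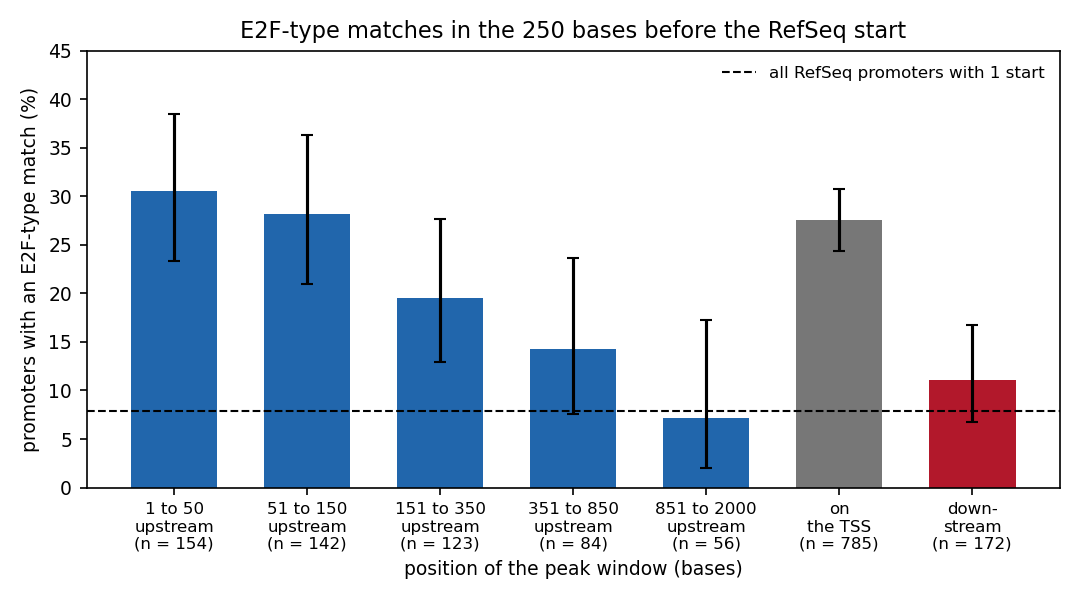
Share of promoters with an E2F-type match in the 250 bases before the RefSeq start, in percent with exact 95% intervals, by position of the peak window; the dashed line is the share among all RefSeq promoters with 1 start (7.88%). The bars fall from 30.5% for windows 1 to 50 bases upstream to 7.14% beyond 850 bases, beside 27.5% on the TSS and 11.0% downstream. Downstream windows and those more than 250 bases upstream lie outside the letters searched.

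The 156 matches in members were centred at a median of 145.5 bases before the start, against 89 for the 254 matches in promoters with a peak on the TSS and 109 for the 2006 in all promoters. By distance of the window, the median was 160 bases at over 50 to 150, 145 at over 150 to 350 and 145 at over 350 to 850. Windows of the last range lie outside the letters searched. In the members with a window 1 to 50 bases upstream the median was 143 bases. Their summits lie more than 150 and at most 200 bases before the TSS of the authors' table, and 35 of the 61 matches (57.4%) were within 50 bases of the summit. No such share was computed for other promoters, so whether this is more than position alone gives was not tested. Overlapping matches were each counted. Only 17 of the 156 matches in members (10.9%) were in the last 50 bases before the start, against 77 of 254 (30.3%) for peaks on the TSS. For CCAAT boxes the medians were 107 and 84 bases.

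**Figure D4:**
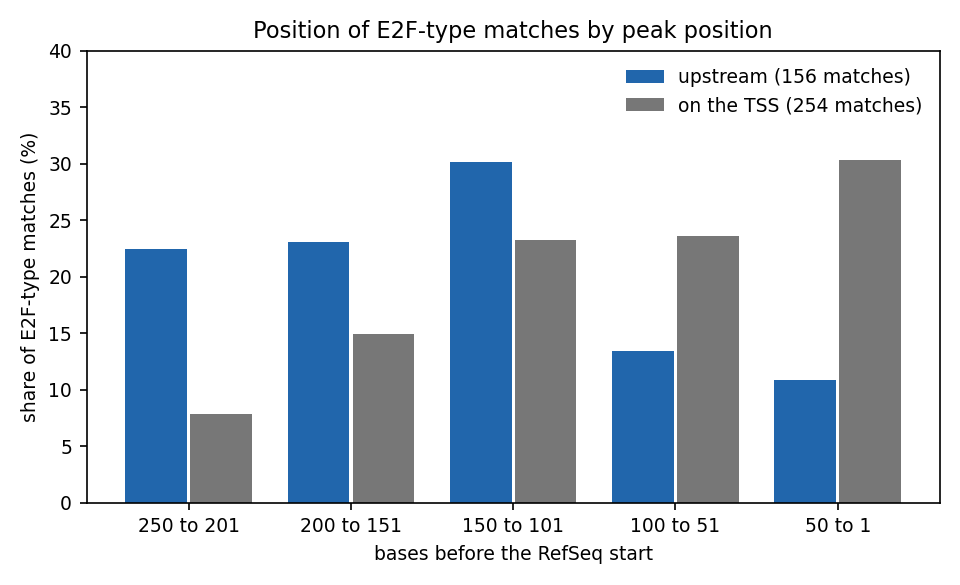
Position of E2F-type matches in bases before the RefSeq start, as a share of all matches in percent, for promoters with an upstream peak (156 matches) and with a peak on the TSS (254 matches). Matches of upstream peaks are most frequent 150 to 101 bases before the start, and those of peaks on the TSS in the last 50 bases.

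The median fold was 8.14 in the 127 with a match (6.82 to 9.14) and 5.905 in the 432 without (5.71 to 6.4). A fold of at least 10 was reached by 33.1% and 19.0% of them. In the range of 1 to 50 bases the medians were 8.78 (8.12 to 11.2) and 5.87 (5.48 to 7.12), whereas at over 350 to 850 bases they were 5.605 and 5.6. Read the other way, a match was present in 15.2% of members with a fold under 5, in 22.1% from 5 to under 10, in 31.5% from 10 to under 20 and in 8 of 16 members at 20 or more (50%, 24.6% to 75.4%). On the TSS the medians with and without a match were 7.76 and 6.71, and downstream 5.31 and 5.35. For members with and without a CCAAT box they were 6.67 (6.12 to 7.18) and 5.99 (5.70 to 6.61), with a fold of at least 10 in 25.8% and 18.8%. For members with and without a GC box they were 6.315 (5.86 to 6.82) and 6.25 (5.83 to 7.29).

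The other promoter elements searched were CCAAT, the GC box GGGCGG, the CHR words TTTGAA and TTCGAA, the ETS word CCGGAAG, the NRF1 core GCATGCG, the YY1 core GATGGCG, the CRE part TGACGTC, the E-box CACGTG and the TATA word TATAAA, each on both strands. A CCAAT box was present in 47.8% of members against 34.7% of all promoters, and in 57.0% at over 50 to 150 bases. The GC box reached 72.3% of members, against 62.9% on the TSS, 61.0% downstream and 32.4% of all promoters. It overlaps in letters with some E2F-type words. TATA words were found in 5.55% of members against 13.6% of all promoters, and CHR words, known from promoters of mitotic genes, in 10.4% against 17.9%. The ETS word was in 13.4% of members and 18.2% of promoters with a peak on the TSS, and the NRF1 core in 5.37% and 8.54%. Members were also rich in G and C, with a median of 62.8% against 58.0% on the TSS and 52.0% in all promoters, and the part that base composition has in these shares was not tested.

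By function, 4 of 69 replication, mitosis and repair genes with a single-promoter peak had it upstream, against 37.98% of all single-promoter peaks. In the lipid, glucose and insulin, and fat oxidation lists it was 15 of 26, with an interval, given below, that holds the 37.98%. Both groupings were made after the values had been seen. The 15 gene lists hold 569 entries, and 34 members are in 1 of them or more. Of the 34 genes for DNA replication and nucleotide supply with a single-promoter peak, 2 had it upstream, 26 on the TSS and 6 downstream. For mitosis the counts were 1, 17 and 1, and for DNA repair and checkpoint 1, 12 and 3. When these 3 lists were combined, after the values had been seen, 4 of 69 genes (5.80%, 1.60% to 14.2%) had an upstream peak, against 37.98% of all single-promoter peaks. The 4 were Mcm5, a subunit of the replicative helicase (fold 14.3, 6 bases upstream), Top1, a topoisomerase (5.28 at 103), Cdc25c, a phosphatase of mitotic entry (8.43 at 83), and H2afx.

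Of 6 genes of lipogenesis and cholesterol, 5 had their peak upstream (83.3%, 35.9% to 99.6%), an interval that holds the 37.98% of all single-promoter peaks. Insig1, the sterol-regulated anchor of SCAP, had a fold of 11.17 at 86 bases and Fasn, which makes palmitate, 9.34 at 240. Fdps, which makes farnesyl diphosphate, had 8.97 at 10 bases, and Fdft1, the next enzyme towards squalene, 8.41 at 79. The exception, Fads1, had its peak on the TSS. For glucose metabolism and insulin signalling the counts were 7 upstream, 5 on the TSS and 2 downstream, and for fatty acid oxidation 3, 2 and 1. Combined after the values had been seen, these 3 lists had 15 of 26 genes upstream (57.7%, 36.9% to 76.6%), and this interval too holds the 37.98%. The median fold of the 15 was 8.41 and their median distance 240 bases. The lists are short, they were chosen with earlier results of these data known, and no test of their composition was run.

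**Figure D5:**
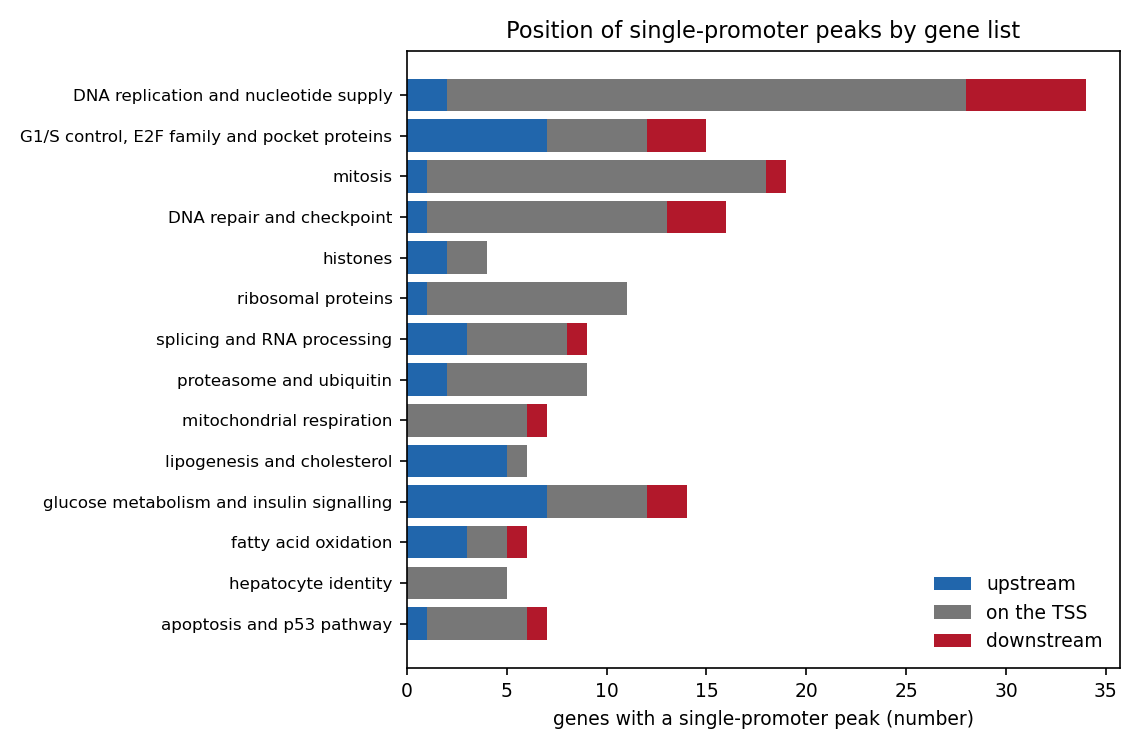
Number of genes of each list with a single-promoter peak upstream of the TSS (blue), on it (grey) or downstream (red); a list with none is not drawn. Upstream peaks make up 2 of 34 in the replication list and 5 of 6 in the lipogenesis and cholesterol list.

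Among the glucose and insulin genes, Rictor, a subunit of the mTORC2 kinase complex, had a fold of 9.57 at 278 bases, and Pgk1, a glycolytic kinase, 9.29 at 181. Pcx, which turns pyruvate into oxaloacetate, had 8.95 at 3 bases. The insulin receptor Insr had 6.97 at 703 bases and its substrate Irs2 5.86 at 510. Pik3r1, a regulatory subunit of PI3 kinase, had 4.19 at 464 and Ppp1r3b, a glycogen-targeting subunit of protein phosphatase, 4.25 at 366. The 3 signalling genes Insr, Irs2 and Pik3r1 thus had windows farther out than the median member. In fat oxidation, Pdk4, which shuts pyruvate dehydrogenase down in fasting, had 14.64 at 263 bases, its relative Pdk2 4.43 at 131 and Acsl1, which activates long fatty acids, 4.25 at 51.

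The G1/S list had 7 of 15 genes upstream (46.7%, 21.3% to 73.4%), near the 37.98% of all single-promoter peaks. Besides Cdkn2d and E2f3 these were Ccne1, the gene of cyclin E1, with a fold of 17.26 at 288 bases, and Cdkn2a, the INK4 and ARF locus, with 8.98 at 190. Ccnd1, the gene of cyclin D1, had 5.35 at 1600 bases, Lin54, the DNA-binding subunit of MuvB, 5.34 at 137, and Rb1, the retinoblastoma protein that restrains E2F1, 4.54 at 290. Of the other lists, splicing had 3 of 9 upstream (Prpf19 13.27, U2af1 9.63, Prpf8 5.63), proteasome and ubiquitin 2 of 9 (Psmd1 10.42, Psmb6 4.15), ribosomal proteins 1 of 11 (Rpl10 7.11) and apoptosis 1 of 7 (Xiap 3.73). Histones had 2 of 4, H2afx and the replacement histone H3f3a with 11.26. Mitochondrial respiration had 0 of 7 and hepatocyte identity 0 of 5. The interval of each of these 7 shares holds the 37.98%. None of the 25 markers of other liver cell types had any listed peak. Genes without any listed peak also made up 30 of 45 hepatocyte identity genes, 17 of 21 histone genes and 13 of 61 replication genes. Their share over all genes was not counted.

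Of the 34 list members, 15 had exactly 1 RefSeq start, and 5 of these held E2F-type matches: Mcm5, Fasn, Irs2, Pgk1 and Rictor. Mcm5 and Fasn are shown as a replication gene and a lipid gene with a match, chosen after their values were seen, at chr8:75109259-75109508 (plus strand) and chr11:120824548-120824797 (minus strand) in GRCm38.p6, with capitals as above.
Mcm5: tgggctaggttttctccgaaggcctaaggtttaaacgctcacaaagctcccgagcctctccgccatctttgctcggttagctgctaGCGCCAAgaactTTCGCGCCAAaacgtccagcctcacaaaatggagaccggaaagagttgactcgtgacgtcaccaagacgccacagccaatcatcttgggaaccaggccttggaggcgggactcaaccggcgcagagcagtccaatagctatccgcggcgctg
Fasn: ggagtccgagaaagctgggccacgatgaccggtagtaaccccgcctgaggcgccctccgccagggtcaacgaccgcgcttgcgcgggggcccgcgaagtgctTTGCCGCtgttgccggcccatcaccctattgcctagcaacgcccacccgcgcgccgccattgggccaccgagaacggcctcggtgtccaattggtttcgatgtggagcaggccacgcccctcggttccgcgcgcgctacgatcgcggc

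In Mcm5 the 3 matches were centred 161, 149 and 146 bases before the start, inside a window that began 6 bases upstream. In Fasn the match lay 145 bases before the start, while the window began at 240 bases, so the match was outside it by the authors' TSS. Pgk1 held matches at 247 and 216 bases with its window from 181, Irs2 at 191 and 101 and Rictor at 57, the last 2 genes with windows farther upstream than their matches.

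The genes of 197 members (22.7%) were also named by another listed peak, against 16.0% of genes with a peak on the TSS and 14.98% with a downstream peak. The other peak was inside the gene for 127 members and downstream for 45. The member was the stronger one in 135 of the 197. Where it was not, the largest folds elsewhere were 24.79 for Gse1, 23.26 for Echs1 and 20.95 for Magi1. The first is also the promoter peak of Gins2, a subunit of the replicative helicase complex, with its window 66 bases downstream of that TSS, and the second that of 1810014F10Rik, at 300 bases downstream, and in both cases these were the closest genes. The peak of Magi1 lay inside that gene. Hspa8, the constitutive heat shock chaperone, had a member 1092 bases upstream with a fold of 3.79 and a second peak on its TSS with 16.45. Both Lasp1 and Sh2b3 had 2 upstream members. Those of Sh2b3, an adaptor that dampens cytokine signalling, had 13.69 at 16 bases and 4.29 at 1631, and those of Lasp1 4.67 at 57 and 4.98 at 1812.

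Members occurred on all autosomes and on X, where they were 29 of 70 single-promoter peaks, and the 1 such peak on Y was not upstream. Chromosome 13 had the highest share of upstream peaks among single-promoter peaks, 35 of 70 (50%, 37.8% to 62.2%), and chromosome 6 the lowest of the autosomes, 27 of 102 (26.5%, 18.2% to 36.1%). Nearly all members named protein-coding genes, 841 by the RefSeq match, and 5 named long noncoding RNAs, of which 1700001L05Rik had the highest fold, 6.8. Symbols of predicted genes starting in Gm were 14 of the members (1.62%) and 5 of the peaks on the TSS (0.436%).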

How the data were processed

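Chromatin immunoprecipitated with anti-E2F1 and input chromatin were sequenced, 1 record each. Per the submitters' processing notes, reads were aligned with Bowtie2 (2.1.0) to mm9. Per the file headers, peaks were called with MACS, version not stated there. The authors deposited, for each peak, the count of tags in the region, the height of the pileup signal, the fold as a ratio over the background expected from input, a score of 10 times the negative log10 of the p-value, and a false discovery rate in percent. Depth per library is unknown and whether replicates were pooled is not given, so no test between samples was run.

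Positions came from the authors' promoter class and distance, which run to 2000 bases upstream and 500 downstream. Symbols were matched to RefSeq tables of GRCm38.p6, from which promoter letters, strand and neighbours were taken. Strand was checked on 185 genes with entries on both sides of the TSS; in all 185 both entries gave 1 TSS within 2 bases. Medians have exact order-statistic intervals and shares exact (Clopper-Pearson) intervals at 95%. Matches were counted on both strands. Counting was tested on simulated data. Genes were named by rank (20 highest and 5 lowest folds), by distance (5 nearest and 5 farthest, and those just outside) and from 15 lists, others after their values were seen. The values of 1 list member are not reported here. Members and lists were chosen with earlier results of these data known. Python 3.11.15 with pandas, numpy, scipy and matplotlib was used. Alternatives are in the closing section.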

Additional observations from a re-analysis of the deposited data

How the results depend on the processing

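Of 30 alternatives, 16 left the value inside its 95% interval and 14 put it outside. Those with tags per kilobase were set against intervals of the fold, which is another unit, so they fell outside by construction. With a false discovery rate of at most 5%, the median fold was 6.835 upstream, 7.32 on the TSS and 5.67 downstream, and at most 1% gave 8.31, 8.66 and 7.35, in the same order. The upstream and on-TSS intervals overlapped under both filters. They were 6.51 to 7.21 and 7.1 to 7.58 at 5%, and 8.01 to 8.67 and 8.42 to 9.08 at 1%. The share of upstream peaks with a fold of at least 10 was then 24.5% and 35.8%. Such a filter removes weak peaks by its construction. The share of regions that contain the TSS was 90.7% with a rate of at most 1% and 93.2% within 850 bases. With tags per kilobase in place of fold the medians were 82.7 upstream, 81.2 on the TSS and 74.1 downstream. The latter 2 were added after seeing the data. The share of promoters with an E2F-type match was 27.7% for windows within 250 bases of the TSS. With genes of any number of starts, an alternative added after seeing the data, it was 24.4%. With 50 bases after the start included it was 25.2%, against 34.7% on the TSS and 13.95% downstream. No paired analysis was possible because the table is not split by replicate. Leaving out a replicate could not be run for the same reason. Unknown depth limits what the absence of a peak shows.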
